A study of Mus musculus with 2 samples.

Results

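Adhesion, orphan, lipid and purine receptor genes were compared between 2 mouse epithelial cell lines, Mle29c and Mlesico. The genes were chosen by their symbols: all adhesion receptors (Adgr), numbered orphan receptors (Gpr), class C orphans (Gprc), receptors for lysophosphatidic acid (Lpar) and sphingosine 1-phosphate (S1pr), purine receptors (P2rx, P2ry, Adora), adrenergic receptors and prostaglandin E receptors. The rule used no measured value, although the group was proposed with earlier results of these arrays known. It found 121 genes with 198 probe sets, of 18193 genes with 34945 probe sets that each list a single gene. Of the 121, 16 match the pattern but were set apart, from textbook knowledge, as not G protein-coupled receptors. They are the P2X channels and genes such as Gpr107, Gpr108 and Gpr89.

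Each line was measured on 1 array, in a series about miR-29c in lung fibrosis and the renewal and death of epithelial cells. Both lines were grown, untreated, in DMEM with serum, and biotin-labelled cRNA was made from Trizol-extracted total RNA. The labels give neither the way each line was made, nor whether it is 1 clone, nor whether Mle29c has more or less miR-29c than Mlesico. Neither line has a replicate, so no test was possible and every difference below is a value of these 2 arrays only. Since RNA of whole cultures was measured, fewer cells of a type and less RNA per cell cannot be told apart.

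G protein-coupled receptors cross the cell membrane 7 times and, on binding a ligand, activate G proteins that set the production of cAMP or the release of calcium, among other outputs. Adhesion receptors carry a long extracellular part that is cut from the membrane part during maturation in many of them, and that binds matrix proteins or neighbouring cells. In lung epithelium, ATP released from the cells acts through P2Y2 on surfactant secretion and chloride transport, P2X7 is a marker of alveolar type 1 cells, Gprc5a is a tumour suppressor in mice, and Adgrf5 controls surfactant pool size in alveolar type 2 cells. P2X receptors are ATP-gated ion channels and were kept here because the symbol rule takes them.

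The miRNA that the series is about is shown with its relatives, since the Mle29c line carries its name. The mature sequences come from RefSeq for the GRCm38.p6 assembly, and the capitals mark the seed, bases 2 to 8. The loci are chr1:195037600-195037621 on the plus strand for miR-29c-3p, chr6:31062673-31062694 on the minus strand for miR-29a-3p, and chr1:195037091-195037113 on the plus strand for miR-29b-3p.
mmu-miR-29c-3p: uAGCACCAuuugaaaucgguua
mmu-miR-29a-3p: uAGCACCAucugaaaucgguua
mmu-miR-29b-3p: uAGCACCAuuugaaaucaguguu
All 3 share the seed AGCACCA. The array values do not measure the miRNA, and target sites in the receptor transcripts were not searched.

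The deposited values are centred, so that the 2 values of a probe set sum to 0 within 1e-06 and each is the distance of an array from the midpoint of both, taken here as log2. Log2 ratios below are Mle29c minus Mlesico. The centring removed the level of a transcript, which matters for receptors because many are dim. A level class was therefore read from the rounding of the numbers. A remainder in the sum of both values puts a lower bound on the mean log2 level: 8 (a signal of 256) for the high class and 4 (a signal of 16) for the middle class. Where the sum is exactly 0, the class comes from the rounding step and is only an upper bound. Genes with a probe set in the high or middle class are called measured, and the median over those probe sets is their value. Of 80 probe sets of olfactory and vomeronasal receptors, which an epithelial line is not thought to use, 33.8% fell in the middle class and 7.5% in the high class. From the sum, 18.8% were middle and 0 were high. Of 114 probe sets of ribosomal proteins, 82.5% were high. A middle class, also one with a lower bound from the sum, is therefore no sign that a receptor is expressed.

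The labelled cell type was checked against markers. Of 7 epithelial markers 6 were measured, with all 3 probe sets of Krt8 and the probe set of Krt19 in the high class, and Cldn4 in the low class. Ptprc and Cd79a, which mark leukocytes and B cells, and Pecam1 and Tie1 of endothelial cells had low-class probe sets only. In all, 4 of 6 leukocyte, 3 of 5 endothelial, 5 of 6 fibroblast and 4 of 4 neural markers were measured. High-class probe sets were found for 2 epithelial markers, 1 leukocyte marker (Lyz2), 2 endothelial markers (Cdh5 and Tek), 3 fibroblast markers (Pdgfra, Col1a1 and Dcn) and 0 neural markers. Of all these, Krt8 and Dcn were high from the sum. The part of such cells or of dim signal in the receptor values was not tested.

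Of the 121 genes 78 were measured, 42 had low or tied probe sets only, and the level of 1 (Adgrd1) could not be recovered. In Mle29c 11 genes were at least 2-fold higher (14.1%), against a background of 8.4% of 14806 measured genes, and 8 were at least 2-fold lower (10.3%), against 7.18%. The other 59 lay within 2-fold. The median log2 ratio was 0.095, against 0.0057 over all measured genes, with 41 genes above 0 and 37 below. Over the 44 genes with a lower bound on their level, 5 were higher (11.4%), against 6.9% of 9057 genes, and 3 were lower (6.82%), against 6.06%. The shares of all 78 genes lie somewhat above the background but stand on few genes. The share of lower genes among the 44 lies near it. By class the list is dimmer than the array as a whole. In the high class were 31.8% of its probe sets, against 47.8% of all, and in the low class 39.4%, against 21.6%. The share of probe sets past 2-fold was smallest in the high class and largest in the low class. Of the receptor probe sets, 12.7% of the high, 29.1% of the middle and 46.2% of the low class were past 2-fold, against 10.5%, 22.8% and 57.9% over all single-gene probe sets. Class and ratio were read from the same 2 values, and a remainder in the sum sets no upper limit on the level. That a wide difference itself lowers the class was not tested, so this trend was not read as an effect of level.

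**Figure D1:**
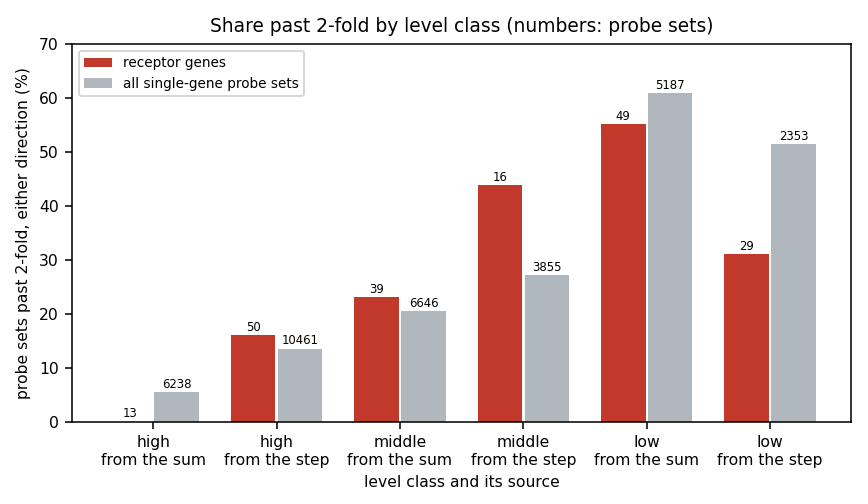
Share of probe sets past 2-fold in either direction (%), by level class and by how the class was found, for receptor probe sets (red) and all single-gene probe sets (grey), with the number of probe sets above each bar. None of the 13 receptor probe sets that are high from the sum was past 2-fold. The share was 55.1% of 49 receptor probe sets that are low from the sum, against 60.9% of all such probe sets. Class and ratio come from the same 2 values, so the bars do not separate level from the size of a difference.

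Adhesion receptors had a median log2 ratio of 0.42 over the 15 of 22 genes that were measured, with 10 above 0 and 5 below. In Mle29c 2 were at least 2-fold higher (Adgrg1 and Adgrv1), 3 at least 2-fold lower (Adgra1, Adgrb2 and Adgrg6) and 10 within 2-fold.

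Adgrg1, known as GPR56, binds collagen III and transglutaminase 2 and couples to G12/13. Its centred signal was 0.58 and 0.45 in Mle29c, against -0.58 and -0.45 in Mlesico, over 2 probe sets that both have a lower bound on their level. The log2 ratios were 1.16 and 0.91, with a median of 1.03 (2.05-fold), so that the gene sits just past the threshold and 1 of its probe sets just under it. Minus the median of its chromosome the gene was at 0.96, short of 2-fold. Its neighbour Adgrg3, an adhesion receptor of leukocytes, had a log2 ratio of -0.25 from 1 probe set. Adgrg6, known as GPR126, binds collagen IV and laminin and raises cAMP, and it is best known for starting myelination in Schwann cells. Its centred signal was -0.67 and -0.91 in Mle29c, against 0.67 and 0.91 in Mlesico. Both probe sets were lower in Mle29c by more than 2-fold (log2 ratios -1.34 and -1.81, median -1.58, 2.98-fold), 1 of them with a lower bound on its level. Adgrg6 was the 1 measured receptor gene with 2 or more probe sets all past 2-fold in a direction. Its probe set at -1.81 has a name that marks a design shared between transcripts, as has the Adgrg1 probe set at 0.91. Without shared designs Adgrg6 rests on the probe set at -1.34 alone and Adgrg1 on that at 1.16. None was so on the higher side. Over all genes with 2 or more measured probe sets the shares were 1.39% lower and 1.93% higher.

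Adgrb2, a brain angiogenesis inhibitor family receptor, had a centred signal of -0.88 in Mle29c, against 0.88 in Mlesico, from 1 probe set (log2 ratio -1.76, 3.38-fold). Its class came from the sum, which puts its level at 3.12 or more on the log2 scale in Mle29c and 4.88 or more in Mlesico. Adgrv1, the very large receptor of the stereocilia of hair cells, had 0.61 in Mle29c, against -0.61 in Mlesico, in its measured probe set (log2 ratio 1.22). Its low-class probe set ran the other way at -3.05, so the gene has no agreed direction. The widest ratio on the lower side among measured adhesion genes, -3.15 for Adgra1, a receptor of the central nervous system, came from 1 probe set of the middle class by the step (-1.57 in Mle29c, against 1.57 in Mlesico). The low-class probe sets of Adgra1 gave 0.14 and 0.88. Neither gene's direction was the same over all of its probe sets.

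Adgrd1, known as GPR133, which signals through Gs to cAMP, had the widest value of the list. Its 1 probe set stood at 4.28 in Mle29c and -4.28 in Mlesico, a log2 ratio of 8.55. At a centred size of 4 or more the rounding of the values themselves hides that of the level, so the class cannot be recovered. The gene is outside the counts above and was singled out after its value was seen.

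Several other adhesion receptors lay within 2-fold. Adgrl1 and Adgrl2, the latrophilins, which bind teneurins and other partners across cell contacts, had a probe set each that was high from the sum. The probe sets of Adgrl1 gave 0.43 and 0.40, and the measured probe sets of Adgrl2 gave 0.33 and 0.25, with a low-class probe set at -2.08. Adgre5, known as CD97, which binds CD55, had 0.21 in Mle29c, against -0.21 in Mlesico (log2 ratio 0.43). Adgra3 had measured probe sets at 0.87 and 0.05. Adgrf5, of the surfactant pool, had a measured probe set at 0.89 and a low-class one at -0.01. Adgra2, which takes part in Wnt7 signalling in brain vessels, had -0.45 in Mle29c, against 0.45 in Mlesico (log2 ratio -0.89, from the step).

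**Figure D2:**
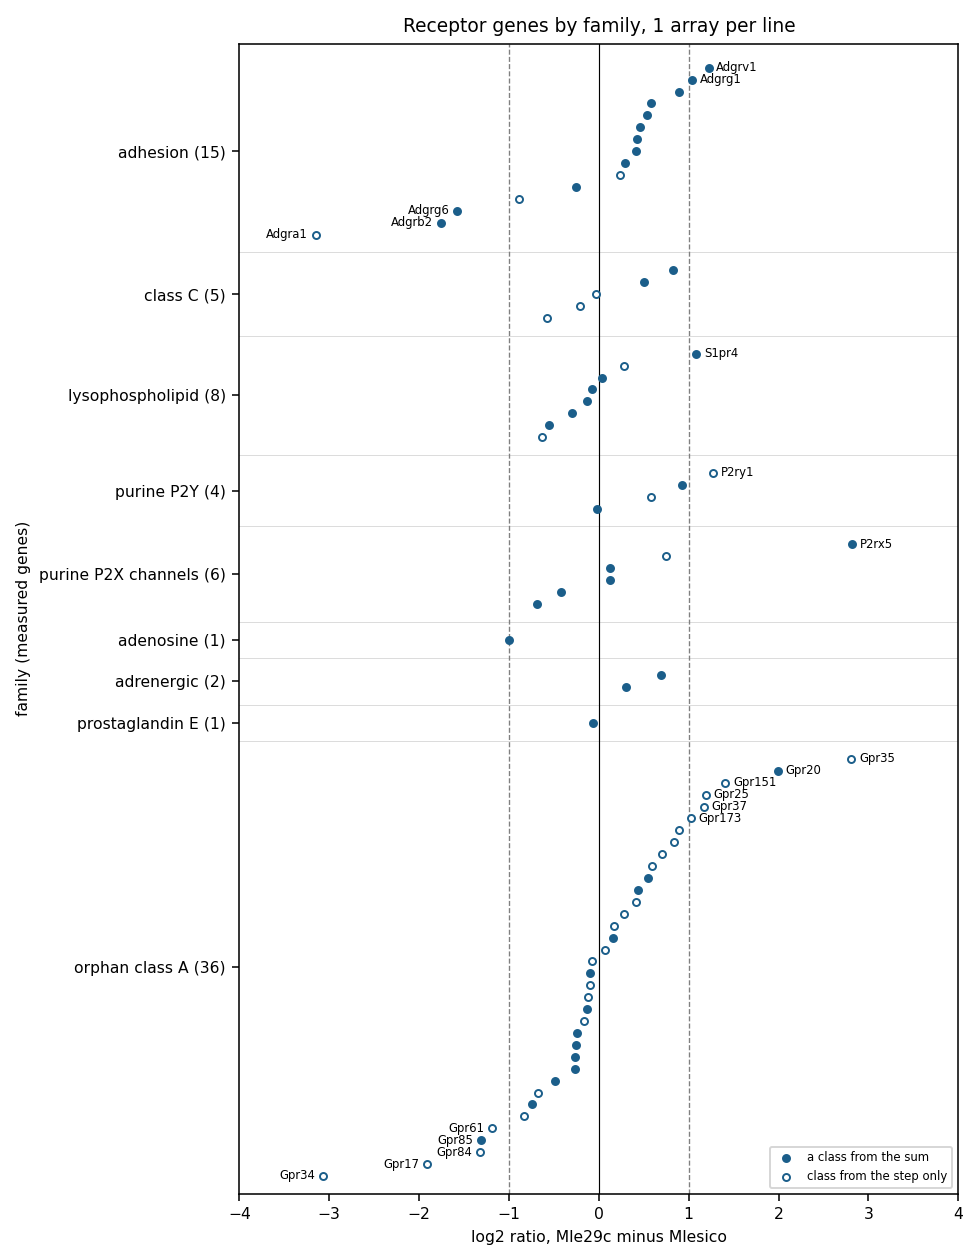
Log2 ratio (Mle29c minus Mlesico, 1 array per line) of each of the 78 measured receptor genes, 1 point per gene, by family, with dashed lines at 2-fold and filled points for genes with a probe set classed from the sum. Of the 19 genes past 2-fold, 8 have a filled point.

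Promoter windows are printed for the adhesion receptors with 2 probe sets past or near the threshold and for Gpr85, which are among the genes on which several probe sets bear. Gpr173, Gprc5b and Gpr45, which also have agreeing probe sets, are not printed. RefSeq windows for GRCm38.p6 were found for 93 of the 121 genes. The printed bases of Adgrg6 and Adgrg1 lie inside the annotated span of the gene, so the start they precede is an internal one. Those of Gpr85 lie at the edge of its gene. The 250 bases before the annotated start are printed below from 5′ to 3′ on the strand of the gene, with the GC box GGGCGG or its reverse complement CCGCCC in capitals. The windows are chr10:14545037-14545286 on the minus strand for Adgrg6, chr8:94976859-94977108 on the plus strand for the first of 2 windows of Adgrg1, and chr6:13839943-13840192 on the minus strand for Gpr85.
Adgrg6: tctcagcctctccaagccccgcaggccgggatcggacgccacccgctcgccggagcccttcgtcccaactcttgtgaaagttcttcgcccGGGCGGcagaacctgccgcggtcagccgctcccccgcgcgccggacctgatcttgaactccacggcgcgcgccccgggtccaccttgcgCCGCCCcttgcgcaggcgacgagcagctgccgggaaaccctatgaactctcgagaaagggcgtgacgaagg
Adgrg1: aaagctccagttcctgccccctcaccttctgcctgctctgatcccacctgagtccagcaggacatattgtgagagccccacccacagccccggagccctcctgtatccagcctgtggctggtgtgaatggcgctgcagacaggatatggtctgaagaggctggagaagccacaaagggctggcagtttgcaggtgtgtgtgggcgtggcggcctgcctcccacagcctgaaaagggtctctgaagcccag
Gpr85: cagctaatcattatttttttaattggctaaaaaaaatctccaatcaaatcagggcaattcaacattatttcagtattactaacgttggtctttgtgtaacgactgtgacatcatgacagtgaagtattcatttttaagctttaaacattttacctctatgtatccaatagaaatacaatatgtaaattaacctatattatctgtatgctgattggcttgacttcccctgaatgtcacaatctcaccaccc
The Adgrg6 window holds 32 CpG sites, a GC content of 69.6% and 2 GC boxes. The Adgrg1 window holds 4 CpG sites at 60.8% GC, and the Gpr85 window 2 CpG sites at 32.0% GC, with 0 GC boxes each. The windows of Adgrg6 and Gpr85, both lower in Mle29c, thus differ widely in composition. A GC box on either strand was found in 45.0% of the 60 measured receptor genes that have a window and in 51.5% of the 33 with low or tied probe sets only, against 35.4% of all genes with a window. Median CpG counts were 8.5 and 6.0 for those receptor groups, against 6.0 over all genes. A match is a description of the letters and no evidence of binding.

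Of the class C orphans 5 of 7 were measured and none passed 2-fold, with a median log2 ratio of -0.03. Gprc5a, the retinoic acid-induced receptor known in mice as a lung tumour suppressor, had 0.25 in Mle29c, against -0.25 in Mlesico, in a probe set that was high from the sum (log2 ratio 0.50). Gprc5b, a relative linked to lipid rafts and insulin signalling, had 0.44 and 0.39 in Mle29c, against -0.44 and -0.39 in Mlesico. Both probe sets have a lower bound on their level and they agree closely (log2 ratios 0.88 and 0.78, median 0.83, 1.77-fold). Gpr158, a receptor for glycine in the brain, had the lowest value of this family at -0.57, and its low-class probe set ran the other way at 2.85. Gprc5c had -0.40 and -0.01, and Gprc5d -0.03.

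Most receptors for lysophospholipids lay within 2-fold in both directions. Of 10 genes 8 were measured, 1 was at least 2-fold higher in Mle29c (12.5%, against 8.4% of all measured genes) and 0 were lower (against 7.18%). The median log2 ratio was -0.11. Receptors of this family answer lysophosphatidic acid and sphingosine 1-phosphate, which act on migration, barrier function and, in the case of Lpar1, lung fibrosis in mice. Lpar2 and Lpar6 had probe sets that were high from the sum, Lpar2 at -0.13 with a second probe set at 0.19, and Lpar6 at -0.29. Lpar1 had centred signals of -0.32, 0.0031 and -0.42 in Mle29c, against 0.32, -0.0031 and 0.42 in Mlesico, with log2 ratios from -0.85 to 0.01 and a median of -0.63 (1.55-fold). Its probe sets lie on both sides of 0, and all 3 were classed from the step. Lpar4 was at -0.56 with 3 probe sets below 0, from -0.67 to -0.07.

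Among sphingosine 1-phosphate receptors, S1pr2, which couples to several G proteins, had log2 ratios of -0.18 and -0.09, and S1pr1, which couples to Gi and controls egress of lymphocytes, was at -0.08. Both lay closer to 0 than the SD between probe sets of the same gene, which was 0.61 pooled over 6890 genes. That SD does not measure the spread between cultures of a line. S1pr4, a receptor of lymphoid and myeloid cells, had 0.54 in Mle29c, against -0.54 in Mlesico, from 1 probe set of the middle class by the sum (log2 ratio 1.08, 2.12-fold). Of the leukocyte markers, Laptm5 was at 1.02, Cd3e at 0.78, Lyz2 at 0.23 and Cd68 at -0.99, while Ptprc and Cd79a had low-class probe sets only. Their part in the S1pr4 value was not tested. S1pr5 was at 0.28. S1pr3 had 3 low-class probe sets from -1.38 to 1.39, and Lpar3 a single one at -2.82.

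The purine receptors held the highest value of the measured list. P2rx5, an ATP-gated channel, had a centred signal of 1.41 in Mle29c, against -1.41 in Mlesico, a log2 ratio of 2.82 (7.05-fold) from 1 probe set. The class came from the sum, so that its level was at least 5.41 on the log2 scale in Mle29c and at least 2.59 in Mlesico. With no second probe set, agreement could not be checked. P2rx5 stood 3.06 above the median of the genes on its chromosome, which was -0.25. The other measured P2X genes lay within 2-fold. P2rx4, the channel of lysosomes and lamellar bodies in alveolar type 2 cells, had 4 probe sets from -0.26 to 0.53 on both sides of 0 (median 0.13). P2rx7, the large-pore channel tied to inflammasome activation, had 3 probe sets that were all lower in Mle29c (log2 ratios -0.87, -0.42 and -0.38, median -0.42, 1.34-fold). P2rx1 had -1.48 and 0.11, which disagree. P2rx3 was at 0.75 and P2rx6 at 0.13.

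Of the 9 P2Y genes 4 were measured, 1 was at least 2-fold higher in Mle29c and 0 were lower. The higher share, 25.0% against 8.4% of all measured genes, stands on that 1 gene, and 7.18% of all measured genes were lower. P2ry1, a receptor for ADP that couples to Gq, had 0.64 in Mle29c, against -0.64 in Mlesico (log2 ratio 1.27, 2.42-fold, class from the step). P2ry12, the ADP receptor of platelets and microglia, was just short of 2-fold at 0.93, with its class from the sum, and at 1.01 minus the median of its chromosome. P2ry2, the airway receptor for ATP and UTP, was at 0.58, and P2ry4, which answers UTP, at -0.02. The other 5 had low-class probe sets only, and 4 of these lay past 2-fold: 3.96 for P2ry13, -3.03 for P2ry6, -2.83 for P2ry10 and -2.42 for P2ry14. On chromosome 3 the genes Gpr171, P2ry14, P2ry13 and P2ry12 lie close together, and their log2 ratios were 1.88, -2.42, 3.96 and 0.93, so these neighbours differed in sign, the first 3 of them on low-class probe sets.

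Of the remaining ligand families, Adora3, a receptor for adenosine that couples to Gi, was just short of 2-fold at -0.997 (1.995-fold; -0.50 in Mle29c, against 0.50 in Mlesico), and its low-class probe set was at -4.18. Adra1b, which couples to Gq, was at 0.70. Adra2c, which couples to Gi, had measured probe sets at 0.60, 0.31 and -3.91, the widest disagreement of the list, and a low-class one at 2.71. The median of 0.31 says little for this gene. Of the prostaglandin E receptors 1 of 4 was measured: Ptger4, which couples to Gs, at -0.06, with a low-class probe set at 0.05. Ptger2, also a Gs receptor, had a single low-class probe set at 1.85.

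Among the numbered orphan genes 36 of 59 were measured. In Mle29c 6 of them were higher by 2-fold or more (16.7%, against 8.4% of all measured genes) and 5 lower (13.9%, against 7.18%). These shares stand on few genes. The median log2 ratio was -0.08. Gpr35, a receptor of intestinal and immune cells for which kynurenic acid and other ligands have been proposed, had 1.41 in Mle29c, against -1.41 in Mlesico (log2 ratio 2.81, 7.02-fold). Its class came from the step. Gpr20, a Gi-coupled orphan known from the interstitial cells of the gut, had 0.997 in Mle29c, against -0.997 in Mlesico (log2 ratio 1.99, 3.98-fold). Its class came from the sum, with a level of at least 4.997 in Mle29c and at least 3.003 in Mlesico on the log2 scale. Gpr20 stood 1.64 above the median of its chromosome, which was 0.36.

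The other 4 higher orphans were nearer to the threshold and had no lower bound on their level. Gpr151, of habenular neurons, was at 1.41, Gpr25 at 1.19 and Gpr37, a receptor of glia and neurons, at 1.17. Gpr173, a conserved brain orphan, had probe sets at 1.28 and 0.76, which agree in direction with a median of 1.02, just past the threshold. After subtraction of the chromosome median, Gpr37 was at 0.85.

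On the lower side, Gpr85 had the most probe sets. Known as SREB2, it is the most conserved orphan of the brain family to which Gpr173 also belongs. Its centred signals were -0.72, -0.65 and -0.47 in Mle29c, against 0.72, 0.65 and 0.47 in Mlesico, and its low-class probe set stood at -0.34 in Mle29c, against 0.34 in Mlesico. All 4 probe sets were lower in Mle29c (log2 ratios from -1.44 to -0.68), the median of the 3 measured ones was -1.31 (2.48-fold), and 2 of them have a lower bound on their level. Without its probe set at -1.44, which has a shared design, the median of the measured ones was -1.12. Relative to the median of its chromosome, 0.32, the gene stood at -1.63. Gpr85 and its relative Gpr173 thus lay on opposite sides.

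Gpr34, a receptor for lysophosphatidylserine on microglia, had -1.54 in Mle29c, against 1.54 in Mlesico, from 1 probe set classed by the step (log2 ratio -3.07, 8.41-fold). Gpr17, of oligodendrocyte precursors, was at -1.91, Gpr84, a receptor for medium-chain fatty acids on myeloid cells, at -1.33, and Gpr61 at -1.19, each from 1 probe set classed by the step. Gpr45 had probe sets at -1.20 and -0.46, both lower in Mle29c, with a median of -0.83. Beside these genes, several of them best known from brain or myeloid cells, all 4 neural markers were lower in Mle29c (Snap25 at -1.58, Tubb3 at -1.49, Gfap at -0.55 and Syt1 at -0.35), none of them in the high class. The values of Gfap and Syt1 were smaller in size than the SD between probe sets of a gene, 0.61. Snap25, Tubb3 and Gfap rest on 1 measured probe set each. Gpr151, Gpr37 and Gpr173, also known from neurons, glia or brain, were higher at 1.41, 1.17 and 1.02. Of the leukocyte markers, Cd68, of the middle class, was at -0.99, while Lyz2, of the high class, was at 0.23. Laptm5 was at 1.02 and Cd3e at 0.78. The part of such cells in the receptor values was not tested.

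**Figure D3:**
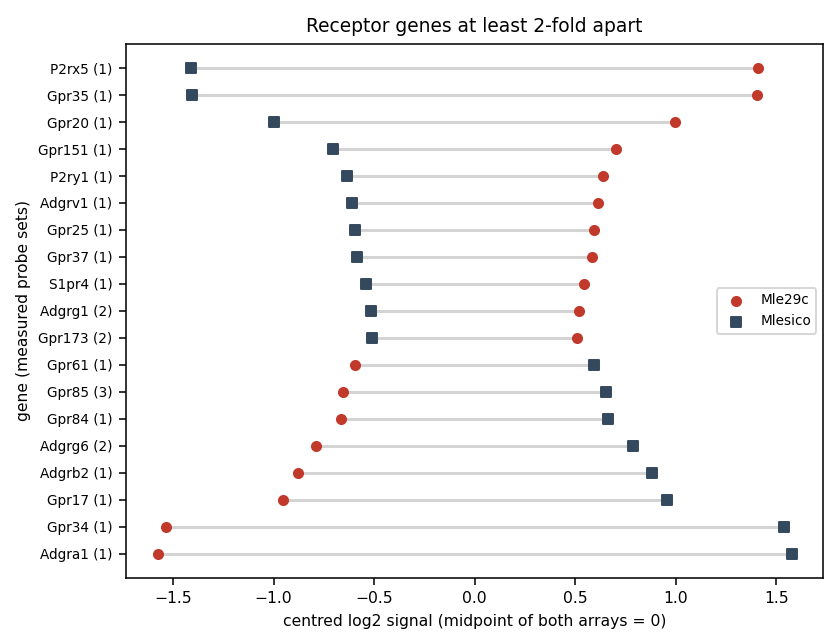
Centred log2 signal of each array for the 19 receptor genes at least 2-fold apart (median over measured probe sets, whose number is given beside the gene), with Mle29c as red circles and Mlesico as dark squares. The arrays mirror each other because the values are centred, P2rx5 and Gpr35 are the highest in Mle29c, and Adgra1 and Gpr34 the lowest.

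Other well-known orphans lay within 2-fold. Gpr161, a brake on hedgehog signalling in the primary cilium, had a probe set that was high from the sum at -0.13, and Gpr146, linked to cholesterol in the liver, had 4 probe sets from -0.99 to 0.44 on both sides of 0. Gpr39, a zinc-sensing receptor, was at -0.26 and Gpr183, which binds oxysterols, at -0.09. Among genes that only match the pattern, the lysosomal protein Gpr137 was at 0.54, Gpr107 had 4 measured probe sets around 0.06, and Gpr108 was at 0.41.

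In all, 13 receptor probe sets of 13 genes were high from the sum, meaning a mean signal of at least 256: Adgra3, Adgre5, Adgrl1, Adgrl2, Gprc5a, Gprc5b, Lpar2, Lpar6, S1pr2, Gpr19, Gpr137, Gpr146 and Gpr161. Their log2 ratios ran from -0.48 to 0.88, with 8 above 0 and 5 below, and none passed 2-fold. Over all genes, 5.4% of such probe sets did. These are the genes of the list with the highest lower bound on their level, and all but Gpr137 are receptors.

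Agreement between probe sets was the other check that the arrays allow. Of the 78 measured genes 53 had 1 measured probe set and 25 had 2 or more. In 13 of these 25 (52.0%) every measured probe set had the same sign, against 56.2% of 6890 genes with 2 or more. The SD between probe sets of a gene was 0.70 over the 25 receptor genes, against 0.61 over all genes, and 1.24 when low-class probe sets were kept as well (50 receptor genes). A 2-fold difference is a log2 ratio of 1, a size of the same order as these SDs. They compare probe sets on the same 2 arrays, so they do not measure the spread between cultures of a line. The genes with agreeing probe sets and a median past 1.5-fold were Adgrg1, Gpr173 and Gprc5b on the higher side and Gpr45, Gpr85 and Adgrg6 on the lower side. For Adgrg1 and Adgrg6 this agreement needs a probe set of a shared design.

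**Figure D4:**
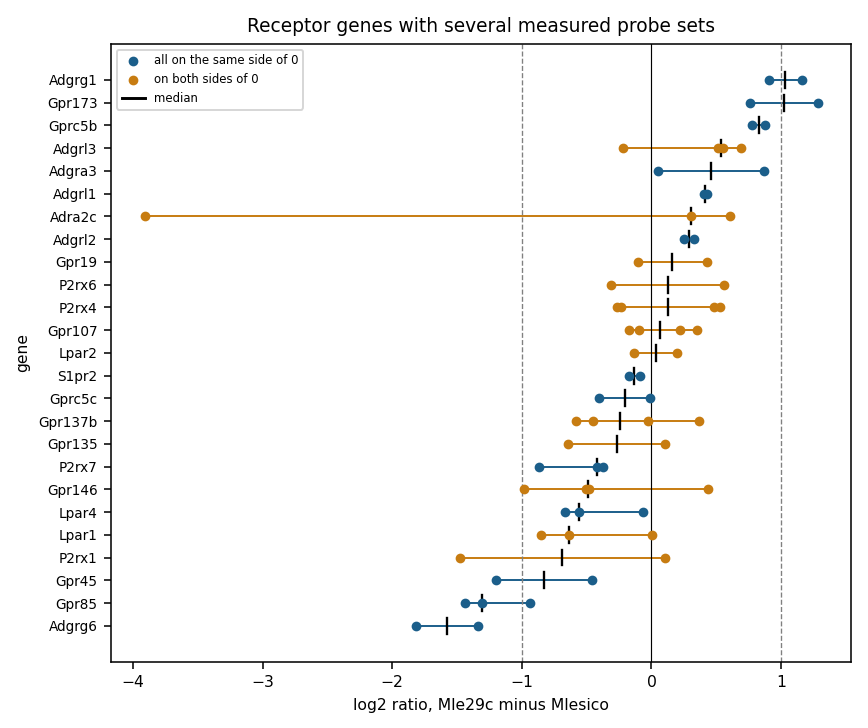
Log2 ratio (Mle29c minus Mlesico) of every measured probe set of the 25 receptor genes with 2 or more, joined by a line per gene, with a tick at the median; blue genes lie on 1 side of 0, orange genes on both. Adgrg6 is the gene whose probe sets are all past 2-fold, and Adra2c has the widest spread.

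The genes with low or tied probe sets only were given no value in the counts. They include Gpr65, a proton sensor of leukocytes, at 3.85, Gpr15, a homing receptor of T cells, at -3.93, and Gpr6 at -2.998. Gpr132 had probe sets at -4.44 and -0.22, and Adgre4 at 2.57 and -4.03. Over the 78 low-class receptor probe sets the log2 ratios ran from -4.44 to 3.96. Swings of this size in both directions were seen within 1 gene, as in Adgre4, and the values were not read as differences between the lines. High-class probe sets of Adra2c also disagreed, at 0.60 and -3.91. The part of dim signal in such swings was not tested.

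Genes that act downstream of receptors or handle their ligands were described by the same rules, from 4 lists taken from textbook knowledge. G protein subunits were mostly within 2-fold. Of 28 listed genes 24 were measured, 1 was at least 2-fold higher in Mle29c (4.17%, against 8.4% of all measured genes) and 2 were lower (8.33%, against 7.18%), with a median log2 ratio of 0.06. Gnas and Gnaq, the subunits that stimulate adenylyl cyclase and phospholipase C, were at 0.38 and 0.59, and Gna13 was at 0.32. Gnao1, the Go subunit abundant in neurons, was at 1.501 from 1 measured probe set, and Gnb3 at -1.07. Gnai1, an inhibitory subunit, had 3 probe sets from -2.35 to 0.61 with a median of -1.53.

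Of 21 effectors 20 were measured, with 3 at least 2-fold higher (15.0%), 1 lower (5.0%) and a median of 0.01. Plcb4, a phospholipase C that Gq activates, had 3 measured probe sets from 2.23 to 2.83 (median 2.59), all higher in Mle29c. Rapgef3, the cAMP sensor Epac1, had 5 probe sets from 0.28 to 1.75 (median 1.47). Of the cyclases, Adcy7 was at 2.62 from 1 measured probe set classed by the step and Adcy3 at -1.40 (from -1.54 to -0.18). Among 25 kinases, arrestins and Rgs genes 19 were measured, of which 3 (15.8%) were higher and 2 (10.5%) lower by 2-fold or more, around a median of 0.02. Grk3, which phosphorylates active receptors, was at 3.05 from 1 measured probe set. Rgs2, which turns off Gq, had 3 measured probe sets from -2.41 to -1.52 (median -1.82), all lower in Mle29c, while Rgs16 was at 2.22, Rgs20 at 1.05 and Rgs3 at -2.84, the last with probe sets from -3.67 to 0.14. The arrestins Arrb1 and Arrb2, at 0.16 and -0.28, lay closer to 0 than the SD between probe sets.

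Of 24 genes that make or clear the ligands 18 were measured, with 2 higher (11.1%) and 3 lower (16.7%) in Mle29c by 2-fold or more and a median of 0.05. In lists of this size these shares stand on 1 to 3 genes each, beside 8.4% higher and 7.18% lower over all measured genes. Among those for sphingosine 1-phosphate, Sphk1, the kinase that makes it, had 2.22 and 0.97 (median 1.60), and Spns2, which exports it, 2.68 from 1 probe set classed by the sum. Sphk2 was at 0.33 and the lyase Sgpl1 at 0.22. Among those for prostaglandins, Ptgs2, the inducible cyclooxygenase, was at -2.68 and Hpgd, which degrades prostaglandins, at -1.28, each from 1 measured probe set classed by the step. Ptges, a prostaglandin E synthase, was at -0.99. Ada, which clears adenosine, was at -2.18 from 1 probe set classed by the sum, and the ecto-nucleotidase Nt5e, which makes adenosine, at 0.12.

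**Figure D5:**
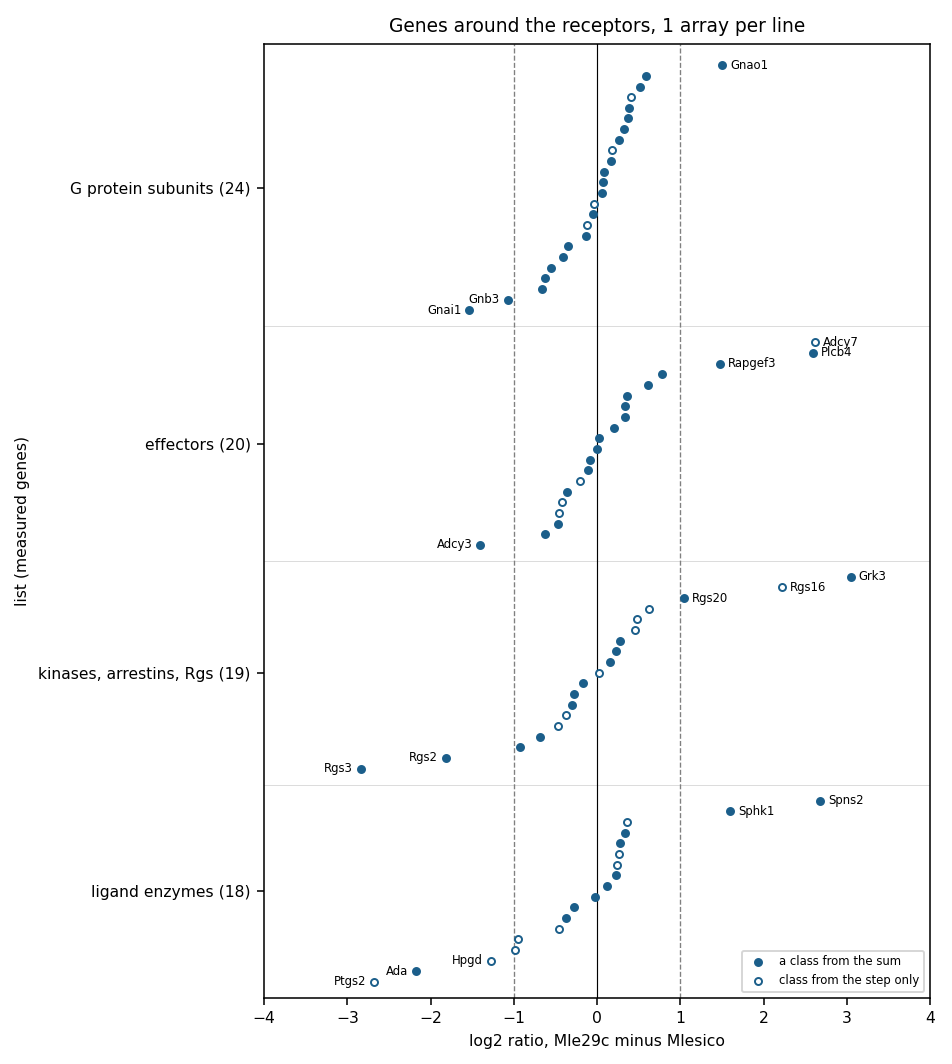
Log2 ratio (Mle29c minus Mlesico, 1 array per line) of the measured genes of 4 lists around the receptors, 1 point per gene, with dashed lines at 2-fold and filled points for genes with a probe set classed from the sum. Plcb4, Grk3 and Spns2 are highest among the filled points and Rgs3 is the lowest, with G protein subunits mostly within 2-fold.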

How the data were processed

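RNA of each line was hybridised to 1 oligonucleotide array of 45101 probe sets. Per the submitters' processing notes MAS5, a method that gives each probe set a single signal, was used, in a version not given in the sources used here. Centred by the authors, the deposited values, taken here as log2, sum to 0 over both arrays for every probe set. The log base is not stated, and a natural log would make every fold larger. It would also change the signals of 256 and 16 given for the level classes. No depth or detection call was used, and the number of arrays limits the precision. Gene names came from the 2016 platform annotation, and 932 probe sets that list several genes were left out. Level classes were recovered from single-precision rounding, and the calculation was tested on simulated data. The test set a limit only for the lower bound of high and middle classes from the sum. Classes from the step and the low class had no such check. Counts are by size alone, with no p-value. Named genes are those past 2-fold, the extremes of each family, those past 1.5-fold with agreeing probe sets, and 20 preset members, of which 17 were on the list and the other 3 are not analysed here. Further members were named after their values were seen, as well-known members of their families or for their position near others. The members, families, lists and alternatives were chosen with earlier results of these data known. Python 3.11.15, NumPy 2.4.6, pandas 2.3.3 and Matplotlib 3.10.9 were used.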

Additional observations from a re-analysis of the deposited data

How the results depend on the processing

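The counts of 11 genes at least 2-fold higher and 8 at least 2-fold lower in Mle29c moved with the probe sets used and with the threshold. With every probe set they were 21 and 20 of 121 genes, and with the high class only 4 and 3 of 46. Where only classes from the sum counted they were 5 and 3 of 44, beside 6.9% and 6.06% of all genes. Asking for 2 or more measured probe sets, each past 2-fold in the same direction, left 0 and 1 of 25, beside 1.93% and 1.39% of all genes. A threshold of 1.5-fold gave 20 and 15 of 78 genes, and one of 4-fold gave 2 and 2. Shares over all genes are not given here for every probe set, for the high class only or for these thresholds, so those counts have no background beside them. Under the other settings the counts were within 1.5 times of the values above. They were 11 and 8 without shared probe designs, 11 and 9 with the mean of probe sets, and 10 and 8 minus the chromosome median. With updated symbols they were 11 and 8, for G protein-coupled receptors alone 10 and 8, and with unrecovered levels kept 12 and 8. The last alternative was chosen after seeing the data. The median log2 ratio of 0.095 was 0.17 in the high class only and 0.0065 over those receptors alone. With every probe set Adgra1 was at 0.14, Adgrv1 at -0.91 and Gpr158 at 1.14, against -3.15, 1.22 and -0.57 above. Adora3 was at -2.59 under that setting. Adra2c, at 0.31 above, was at -1.65 in the high class only and -1.0003 with the mean. P2rx1, at -0.69 above, was at 0.11 where only classes from the sum counted. All of these but Adora3 changed sign. Values near 0 changed sign too, such as P2rx4 from 0.13 to -0.24 with classes from the sum and Lpar2 from 0.03 to -0.13 in the high class only. No paired analysis was possible because each line has 1 array.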
